A study of Homo sapiens with 8 samples.

Results

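Receptors for estrogens and related hormones were followed at the RNA level in cells that differ in estrogen receptor beta (ERβ). The genes were taken from a list of 8: ESR1, ESR2, GPER, PGR, NR3C1, ESRRA, RARA and VDR, out of 23228 genes counted. All 8 were in the count tables, and 7 had enough reads to be tested. PGR did not.

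Total RNA was sequenced in 8 libraries with single reads of 50 bases. They form 4 groups of 2 by their labels: ERβ5 and ERβ1 (each of these isoforms returned to ERβ knockout cells), ERβ-KO (ERβ removed with CRISPR/Cas9) and control (cells without the knockout). All were grown in DMEM medium with 10% fetal bovine serum, so serum hormones were present in every group. The ERβ5 and ERβ1 cells carry the knockout as well as the isoform. The sources used here do not give the promoter of the isoform constructs, whether a line is a single clone, or whether duplicates were grown separately. The p-values thus rest on the spread between duplicate libraries, which may be technical. The series title asks whether the isoforms differ in their effects.

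Every sample is labelled U87 MG, an established human glioblastoma line, and the markers go against that label. Both marker lists were chosen with earlier results of these data known. All 10 luminal epithelial markers examined reached at least 10 CPM (read counts scaled to a common library size) in every library, with KRT8, a keratin of simple epithelia, at 2060 to 4450 CPM. Of 13 glioma and mesenchymal markers, SOX2, FN1, CD44 and LGALS1 reached 10 CPM in every library, whereas OLIG2, POSTN and S100B had 0 reads in all of them. GFAP, the filament of astrocytes, ran from 0.0459 to 0.136 CPM, and VIM, the mesenchymal filament, from 1.82 to 12.4 CPM. The group names below are therefore the names on the labels only. Each library held between 26760897 and 48076414 reads in genes. In each library, the deviation of a gene's log2 level from its mean over the 8 libraries was correlated across genes with transcript GC content. The correlation was r = -0.595 and -0.505 in the ERβ-KO libraries, against -0.161 to 0.398 in the other 6 (genes are not independent replicates). That mean includes the ERβ-KO libraries, so the values of different libraries are not independent of each other. A fit with each library's GC trend removed is therefore set beside the results it alters, and the part of this trend in the remaining results was not tested.

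Nuclear receptors are transcription factors that bind DNA through paired zinc fingers and recruit coactivators or corepressors, in most cases under control of a small lipid ligand. ERα (ESR1) and ERβ (ESR2) bind estradiol and recognise the same DNA element. ERβ1 is the full-length form of ERβ, and ERβ5 is a splice variant with another carboxy-terminal end. In glioblastoma cells ERβ has been studied for its growth-restraining action. GPER (GPER1) is a receptor of the cell membrane that couples to G proteins, PGR is the progesterone receptor and a classical gene target of ERα, and NR3C1 is the glucocorticoid receptor. ESRRA encodes ERRα, an orphan receptor that governs mitochondrial genes, and RARA and VDR encode receptors for retinoic acid and vitamin D that work as dimers with retinoid X receptors.

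The reading helix of the first zinc finger sets which DNA element a nuclear receptor recognises, and its coding sequence is shown for the 7 nuclear receptors so that their differences there can be seen base by base. Each line gives 36 bases of the coding strand, 5′ to 3′, read from GRCh37 (the build of hg19). Capitals mark the 18 bases from the cysteine codon that opens the P-box to the codon that closes it.
ESR1 (chr6:152163874-152163909, plus strand, exon 2): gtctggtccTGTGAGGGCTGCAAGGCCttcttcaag
ESR2 (chr14:64746712-64746747, minus strand, exon 3): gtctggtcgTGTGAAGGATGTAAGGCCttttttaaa
ESRRA (chr11:64074928-64074963, plus strand, exon 2): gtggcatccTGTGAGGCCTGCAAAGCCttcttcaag
PGR (chr11:100996751-100996786, minus strand, exon 2): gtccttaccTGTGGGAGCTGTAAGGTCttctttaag
NR3C1 (chr5:142693580-142693615, minus strand, exon 3): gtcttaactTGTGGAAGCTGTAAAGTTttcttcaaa
RARA (chr17:38504693-38506047, plus strand, across the junction of exons 3 and 4): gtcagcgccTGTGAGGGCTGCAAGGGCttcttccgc
VDR (chr12:48258960-48272785, minus strand, across the junction of exons 3 and 4): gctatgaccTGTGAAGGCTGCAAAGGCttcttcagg

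Within the 18 capital bases ESR1 matched ESR2 at 15, ESRRA at 16 and RARA at 17, but NR3C1 at only 11. PGR and NR3C1, which bind the same kind of element, matched each other at 15, and RARA and VDR matched at 16. GPER belongs to another protein family and has no such helix. Exon numbers are those of the canonical GENCODE transcript.

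The genes lie apart in the genome. On GRCh37, ESR1 spans chr6:151977826-152450754, ESR2 chr14:64550950-64804830, GPER chr7:1121844-1133451 and PGR chr11:100900355-101000544. NR3C1 spans chr5:142657496-142815077, ESRRA chr11:64072969-64084215, RARA chr17:38465432-38513895 and VDR chr12:48235320-48336831. The strand setting of the counting is not given in the sources used here, so reads of overlapping genes on opposite strands may not be separable. Exons of ESRRA share 284 bases with exons of TRMT112 on the other strand. Those of RARA share 556, 291 and 168 bases with other annotated genes on the opposite strand, those of PGR 737 and those of VDR 19. On the same strand, exons of ESR2 share 523 bases and exons of ESR1 share 135 with long noncoding genes. Apart from TRMT112, these exon-sharing genes were not among the genes counted, and their part in the receptor counts was not tested. ESR1, ESR2 and GPER overlap SYNE1, SYNE2 and C7orf50 on the other strand in gene bodies only, with 0 shared exonic bases.

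ESRRA, ESR1, NR3C1, RARA and VDR were well expressed, GPER was lower, and ESR2 and PGR were near or at the detection limit. Per length, as CPM per kilobase of the canonical transcript, the median over the 8 libraries was 22.7 for ESRRA, 20.3 for ESR1, 17.2 for NR3C1, 12.9 for RARA, 9.97 for VDR, 1.8 for GPER, 0.0657 for ESR2 and 0 for PGR. The ranges of neighbours in this order overlapped down to VDR, and the order of ESRRA, ESR1, NR3C1 and RARA was not the same in every library. VDR lay below the whole ranges of ESRRA (from 13.9), ESR1 (from 16.8) and NR3C1 (from 14), and below RARA within each library. ESR1 lay above NR3C1 within each library. GPER (0.782 to 2.4) lay below the whole range of VDR (7.14 to 11.7) and above that of ESR2 (0.0294 to 0.101). Among 48 nuclear receptor genes ranked by the same median, ESRRA was 5th, ESR1 6th, NR3C1 8th, RARA 11th, VDR 14th and ESR2 35th, and PGR was among the genes tied at a median of 0. RXRA and RXRB, retinoid X receptors with which RARA and VDR pair, had medians of 27.7 and 25.6 CPM per kilobase, with overlapping ranges of 21.1 to 31.8 and 22.6 to 28.7.

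**Figure D1:**
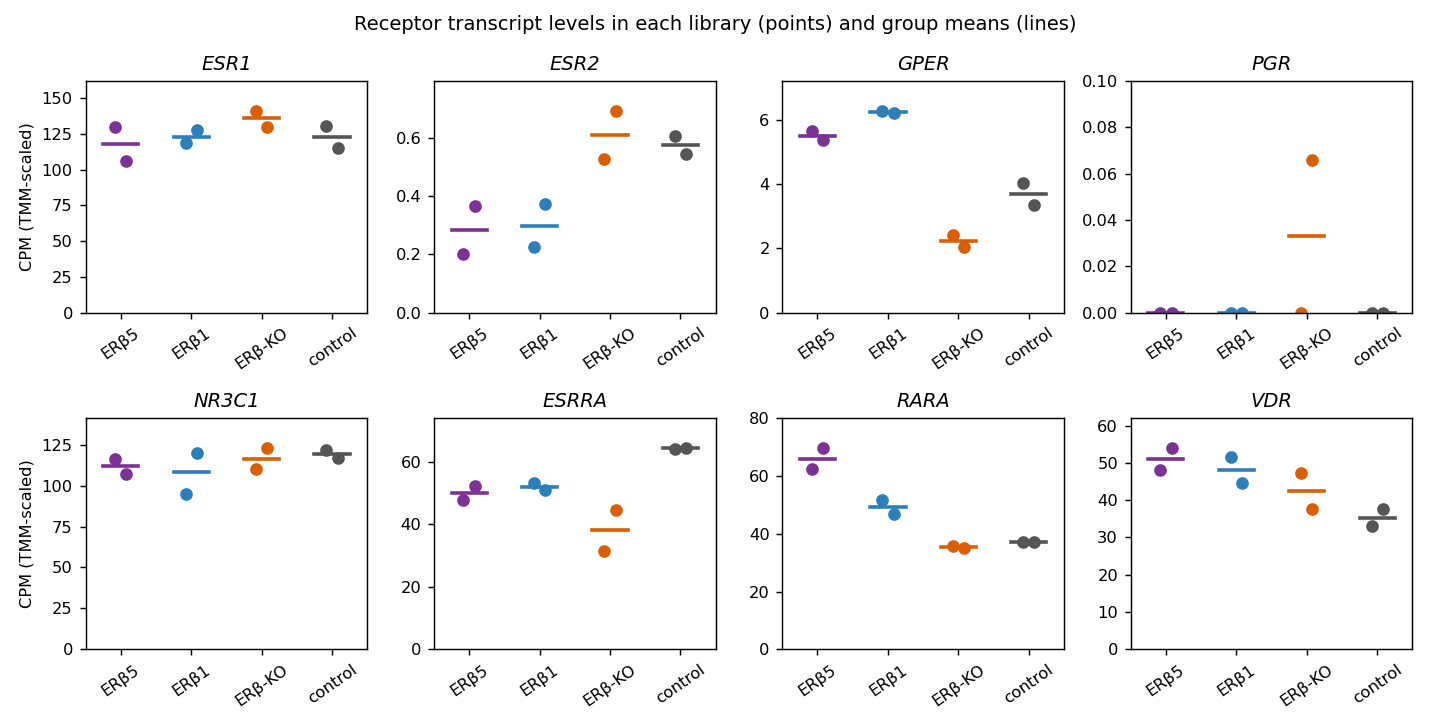
Level of each of the 8 receptors in every library, in CPM, by group (ERβ5, ERβ1, ERβ-KO, control); points are single libraries and lines group means, and each panel has its own axis. RARA stands highest in ERβ5 and next in ERβ1, GPER is lowest in ERβ-KO, and ESRRA is highest in control.

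Of 42 tests (7 receptors in 6 comparisons), 11 passed edgeR's quasi-likelihood test at an adjusted p under 0.05. They fell on GPER, ESRRA, RARA and VDR. ESR1, ESR2 and NR3C1 passed in no comparison. Against ERβ-KO, 2 receptors were higher in ERβ5 and none lower, where 28.2% of all 13915 tested genes passed (14.7% higher, 13.5% lower). In ERβ1 3 were higher than in ERβ-KO and none lower, where 24.9% of all genes passed (12.4% higher, 12.5% lower). Between the isoforms, 1 receptor was higher in ERβ5 than in ERβ1 and none lower, where 4.66% of all genes passed (3.49% higher, 1.18% lower). In ERβ-KO against control, 2 receptors were lower and none higher, where 17.5% passed (8.98% higher, 8.52% lower). Relative to control, 2 receptors were higher in ERβ5, where 13.2% passed (6.85% higher, 6.31% lower), and 1 was higher in ERβ1, where 4.06% passed (1.36% higher, 2.7% lower). With 7 receptors, each of these counts is a description beside its background, and nothing is read from it about receptors as a class. The median log2 change of the 7 was 0.26 in ERβ5 against ERβ-KO, 0.18 in ERβ1 against ERβ-KO and -0.04 in ERβ-KO against control, where the median of all genes lay between 0 and 0.01. Comparisons that use the same ERβ-KO or control libraries are not independent of each other. With the GC trend removed, 2171 of the 13915 genes passed in ERβ5 and 3016 in ERβ1 against ERβ-KO, and 1422 in ERβ-KO against control. In that fit 1007 passed in ERβ5 against ERβ1 and 2648 in ERβ5 against control. GC-corrected counts of listed genes below have these as their background, not the percentages of the main fit.

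**Figure D2:**
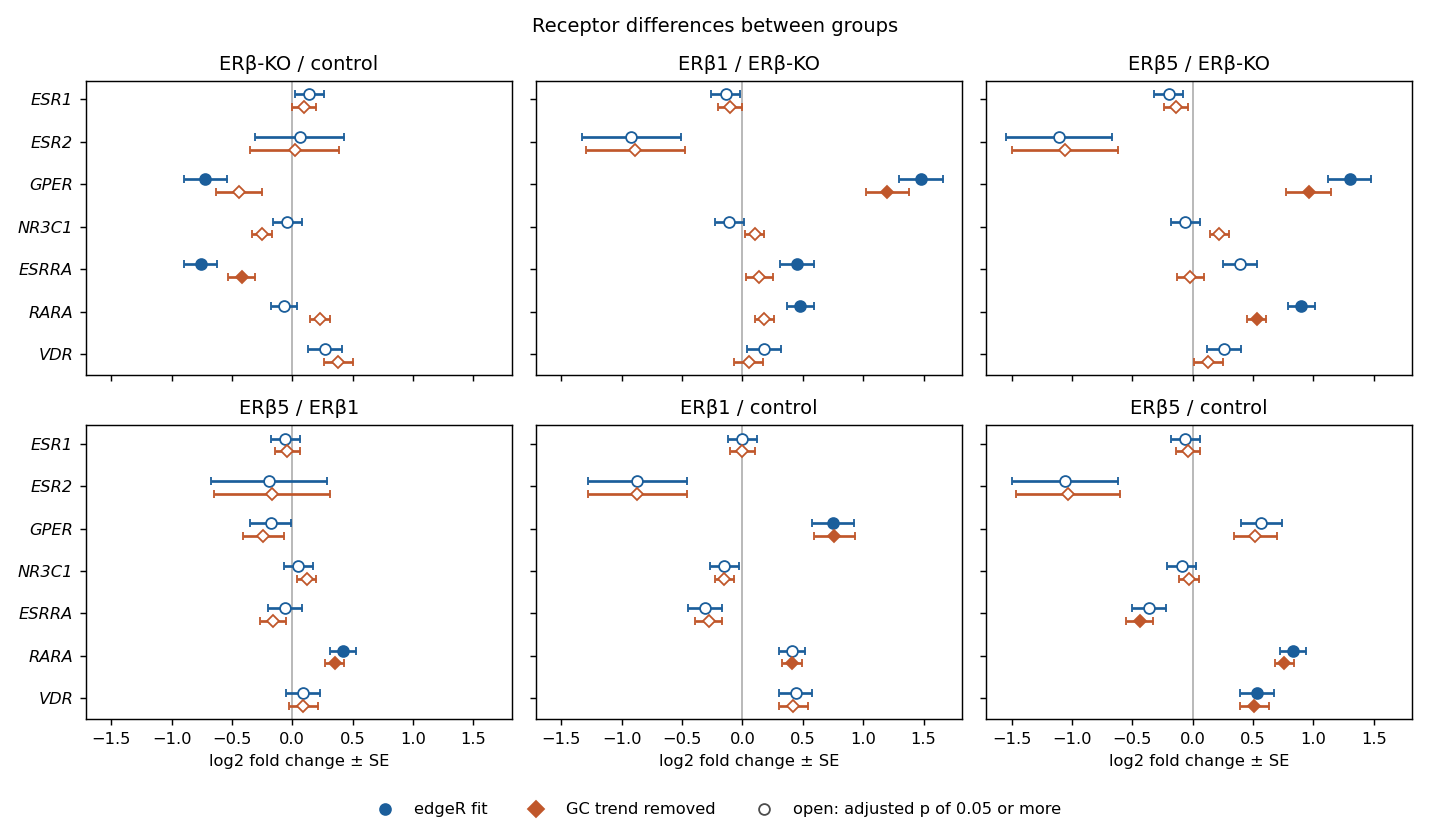
Log2 change of each tested receptor in the 6 comparisons, with standard errors, from the edgeR fit (circles) and with each library's GC trend removed (diamonds); filled symbols passed an adjusted p of 0.05. Among those filled in both fits are GPER in ERβ5 and in ERβ1 against ERβ-KO, and RARA in ERβ5 against ERβ-KO and against control.

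ESR2, the gene of the knockout, was barely detected in any library. The reads counted were 7 and 10 in ERβ5, 6 and 18 in ERβ1, 23 and 21 in ERβ-KO and 25 and 20 in control. The corresponding levels were 0.201 and 0.367 CPM in ERβ5, 0.225 and 0.372 CPM in ERβ1, 0.528 and 0.692 CPM in ERβ-KO and 0.608 and 0.546 CPM in control. The 4 libraries labelled with an isoform thus all lay below the 4 labelled ERβ-KO or control, while ERβ-KO and control overlapped. The log2 change was -1.11 ± 0.44 (SE) in ERβ5 against ERβ-KO (adjusted p = 0.0761), -0.92 ± 0.41 in ERβ1 against ERβ-KO (adjusted p = 0.118) and 0.06 ± 0.37 in ERβ-KO against control (adjusted p = 0.932). Small insertions or deletions need not lower a transcript, so these counts do not check the ERβ-KO label. Nor do they show the isoforms in the libraries labelled with them. Whether reads of the constructs were assigned to ESR2 was not tested. Counts per gene cannot separate ERβ1 from ERβ5 transcripts.

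ESR1, the gene of ERα, was well expressed in every group. It had 130 and 106 CPM in ERβ5, 119 and 128 CPM in ERβ1, 141 and 130 CPM in ERβ-KO and 131 and 115 CPM in control. All 8 libraries lay between 106 and 141 CPM, and ERβ5, ERβ1 and control overlapped each other. The ERβ-KO libraries lay at the upper end, where they overlapped control and lay just above ERβ5 and ERβ1. The log2 change was -0.20 ± 0.12 in ERβ5 against ERβ-KO (adjusted p = 0.21), -0.14 ± 0.12 in ERβ1 against ERβ-KO (adjusted p = 0.406) and 0.14 ± 0.12 in ERβ-KO against control (adjusted p = 0.423). Without the first ERβ5 library the ERβ5 value was -0.36 and passed (adjusted p = 0.0444), and without the second it was -0.08 (adjusted p = 0.714). Per length, ESR1 exceeded ESR2 by 697-fold and 312-fold in ERβ5, 570-fold and 371-fold in ERβ1, 290-fold and 203-fold in ERβ-KO and 233-fold and 228-fold in control. The ratio was higher in all 4 isoform libraries than in ERβ-KO and control, as the ESR2 reads behind it were fewer there.

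PGR, the gene of the progesterone receptor, was not detectable at this depth in 7 libraries. Both libraries of ERβ5, of ERβ1 and of control had 0 reads, and ERβ-KO had 0 and 2 reads. A count of 0 allows up to 3 reads, which is 0.062 to 0.113 CPM depending on the library. That limit covers counting error only. No fold change can be given for PGR.

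GPER, the membrane estrogen receptor, was higher in both isoform groups than in ERβ-KO, by 2.46-fold in ERβ5 and 2.78-fold in ERβ1. It had 5.66 and 5.36 CPM in ERβ5, 6.27 and 6.2 CPM in ERβ1, 2.41 and 2.04 CPM in ERβ-KO and 4.04 and 3.36 CPM in control. No pair of groups overlapped, with ERβ1 highest and ERβ-KO lowest. Levels averaged 5.51 ± 0.208 CPM in ERβ5 and 2.23 ± 0.26 CPM in ERβ-KO (SD, n = 2), a log2 change of 1.30 ± 0.18 (adjusted p = 0.00112). ERβ1, at 6.24 ± 0.0519 CPM (SD, n = 2), was higher than ERβ-KO by 1.48 ± 0.18 on the log2 scale (adjusted p = 0.00025). Both changes passed in all 13 alternatives, at 0.96 to 1.43 for ERβ5 and 1.20 to 1.61 for ERβ1. The lowest value in each case is that with the GC trend removed.

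Relative to control, GPER was lower in ERβ-KO by a log2 change of -0.72 ± 0.18 (adjusted p = 0.0229) and higher in ERβ1 by 0.75 ± 0.17 (adjusted p = 0.0333). In ERβ5 against control the change was 0.57 ± 0.17 (adjusted p = 0.0501). The call in ERβ-KO was lost with the GC trend removed, at -0.44 (adjusted p = 0.162), and on leaving out any of the 4 libraries, with adjusted p from 0.0757 to 0.185. The call in ERβ1 against control stayed with the GC trend removed, at 0.76 (adjusted p = 0.0262), but was lost without any of its 4 libraries (adjusted p 0.116 to 0.269). ERβ5 and ERβ1 differed by -0.18 ± 0.17 (adjusted p = 0.636). GPER reads numbered 62 to 300 per library, and the transcript is 61.2% GC. The summed luminal markers ran at 16200 to 17400 CPM in ERβ5, 17400 to 18400 CPM in ERβ1, 12500 to 12900 CPM in ERβ-KO and 14400 to 15200 CPM in control. By gene, 5 of the 10 were higher in ERβ5 than in ERβ-KO and none lower (28.2% of all genes passed). In ERβ1 against ERβ-KO 5 were higher and none lower (24.9% of all genes). In ERβ-KO against control 2 were lower and none higher (17.5% of all genes). The GC-corrected counts were 3 higher and 0 lower in ERβ5, 5 and 1 in ERβ1, and 0 and 2 in ERβ-KO. The summed glioma and mesenchymal markers ran at 223 to 225 CPM in ERβ5, 218 to 239 CPM in ERβ1, 296 to 332 CPM in ERβ-KO and 270 to 281 CPM in control. Of their 8 tested genes, 3 were lower in ERβ5 than in ERβ-KO and none higher (28.2% of all genes passed). In ERβ1 against ERβ-KO 6 were lower and 1 higher (24.9% of all genes). In ERβ-KO against control 1 was lower and 1 higher (17.5% of all genes). Their GC-corrected counts were 3 lower and 0 higher in ERβ5, 5 and 1 in ERβ1, and 1 and 1 in ERβ-KO. The part of either marker list in the GPER values was not tested. In bulk RNA, fewer cells that express a gene and less RNA per cell cannot be told apart.

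NR3C1, the glucocorticoid receptor, passed in no comparison. It had 116 and 107 CPM in ERβ5, 95 and 120 CPM in ERβ1, 110 and 123 CPM in ERβ-KO and 122 and 117 CPM in control. The ERβ1 libraries alone spanned most of the range of all 8. Changes ran from -0.15 ± 0.12 in ERβ1 against control (adjusted p = 0.555) to 0.05 ± 0.12 in ERβ5 against ERβ1 (adjusted p = 0.863). After removal of the GC trend, ERβ5 against ERβ-KO turned from -0.06 to 0.22 (adjusted p = 0.101) and ERβ1 against ERβ-KO from -0.11 to 0.10 (adjusted p = 0.441). The transcript is the least GC-rich of the 8, at 40.4%.

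ESRRA, the gene of ERRα, was highest in control. It had 47.7 and 52.3 CPM in ERβ5, 53.2 and 50.8 CPM in ERβ1, 31.5 and 44.7 CPM in ERβ-KO and 64.2 and 64.4 CPM in control. The ERβ-KO libraries lay below those of every other group and apart from each other, and ERβ5 and ERβ1 overlapped. ESRRA averaged 38.1 ± 9.33 CPM in ERβ-KO and 64.3 ± 0.119 CPM in control (SD, n = 2), a log2 change of -0.76 ± 0.14 (adjusted p = 0.00695). It was -0.42 after removal of the GC trend (adjusted p = 0.0366), and the transcript, at 63.8% GC, is the most GC-rich of the 8. The part of the marker lists given above in the ESRRA values was not tested. Without the first ERβ-KO library it was -0.52 (adjusted p = 0.0563), and without the second control library the adjusted p was 0.0662.

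Against ERβ-KO, ESRRA was higher in ERβ1 by 0.45 ± 0.14 (adjusted p = 0.0406), and in ERβ5 the change was 0.39 ± 0.14 (adjusted p = 0.0613). Neither held with the GC trend removed, at 0.14 in ERβ1 (adjusted p = 0.39) and -0.02 in ERβ5 (adjusted p = 0.942). Without the first ERβ-KO library the ERβ1 value was 0.22 (adjusted p = 0.291). Without the second ERβ-KO library the ERβ5 value was 0.66 (adjusted p = 0.0156). Relative to control the change was -0.36 ± 0.14 in ERβ5 (adjusted p = 0.121) and -0.31 ± 0.14 in ERβ1 (adjusted p = 0.266). The ERβ5 value became -0.44 with the GC trend removed, and then passed (adjusted p = 0.0194).

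RARA, the gene of retinoic acid receptor alpha, was highest in ERβ5 and intermediate in ERβ1. It had 62.3 and 69.7 CPM in ERβ5, 51.8 and 46.9 CPM in ERβ1, 35.8 and 35.1 CPM in ERβ-KO and 37.3 and 37.2 CPM in control. No pair of groups overlapped, although ERβ-KO and control were close. ERβ5 averaged 66 ± 5.21 CPM and ERβ-KO 35.4 ± 0.452 CPM (SD, n = 2), a log2 change of 0.90 ± 0.11 (adjusted p = 0.000433). Control averaged 37.2 ± 0.082 CPM (SD, n = 2), and ERβ5 was higher than it by 0.83 ± 0.11 (adjusted p = 0.000529). After removal of the GC trend these were 0.53 (adjusted p = 0.00234) and 0.76 (adjusted p = 0.000288), and both passed in 12 of 13 alternatives. The exception was the test against a minimum change of 1.5-fold, with adjusted p of 0.0858 and 0.159.

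In ERβ1, which averaged 49.4 ± 3.44 CPM (SD, n = 2), RARA was higher than in ERβ-KO by 0.48 ± 0.11 (adjusted p = 0.00827). That call was lost with the GC trend removed, at 0.18 (adjusted p = 0.12), and without the first ERβ1 library (adjusted p = 0.0633). Relative to control the change in ERβ1 was 0.41 ± 0.11 (adjusted p = 0.0561), and it passed after removal of the GC trend, at 0.41 (adjusted p = 0.012). ERβ-KO and control differed by -0.07 ± 0.11 (adjusted p = 0.664), a value that turned to 0.23 (adjusted p = 0.0937) with the GC trend removed. RARA was the receptor whose level differed between the isoforms: it was higher in ERβ5 than in ERβ1 by 0.42 ± 0.11 (adjusted p = 0.0447), or 0.35 with the GC trend removed (adjusted p = 0.0241). The call was lost in 6 of 13 alternatives. Among these were leaving out the first ERβ1 library (adjusted p = 0.0778), the second ERβ1 library (adjusted p = 0.219) or the second ERβ5 library (adjusted p = 0.281), and the replicate block (adjusted p = 0.055).

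VDR, the vitamin D receptor, was lowest in control. It had 48.1 and 54 CPM in ERβ5, 51.6 and 44.6 CPM in ERβ1, 47.4 and 37.6 CPM in ERβ-KO and 33 and 37.7 CPM in control. ERβ5 and ERβ1 lay above control, and ERβ-KO overlapped ERβ1 and control. ERβ5 was higher than control by 0.53 ± 0.14 (adjusted p = 0.0264), from means of 51.1 ± 4.17 CPM in ERβ5 and 35.3 ± 3.35 CPM in control (SD, n = 2). It was 0.51 with the GC trend removed (adjusted p = 0.0133). The call was lost without the first control library (adjusted p = 0.253), the second control library (adjusted p = 0.0711) or the second ERβ5 library (adjusted p = 0.117). ERβ1 against control gave 0.44 ± 0.14 (adjusted p = 0.0992), ERβ5 against ERβ-KO 0.26 ± 0.14 (adjusted p = 0.167), ERβ1 against ERβ-KO 0.18 ± 0.14 (adjusted p = 0.363) and ERβ-KO against control 0.27 ± 0.14 (adjusted p = 0.188).

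The genes whose log2 CPM ran most like each receptor over the 8 libraries (Pearson's r), among genes of at least 5 CPM, are given as a description. Closest to GPER were KIF12 (r = 0.983), ADCY5 (r = 0.981) and SNX33 (r = 0.979). RARA was closest to SLC9A3R1 (r = 0.987), SERPINH1 (r = 0.985) and USP35 (r = 0.985), and ESRRA to UBXN6 (r = 0.993), RABAC1 (r = 0.99) and C12orf10 (r = 0.984). ESR1 ran most like SHPRH (r = 0.988) and VDR most like WWC3 (r = 0.979). NR3C1 ran most like SRD5A3 (r = 0.937). The points share library, depth and GC trend. For ESR2 the closest gene was NUPR1 (r = 0.967), from at most 25 ESR2 reads in a library.

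The wider nuclear receptor family was read from a list of 41 further genes, of which 30 were tested. In ERβ5 against ERβ-KO, 8 rose and 7 fell, where 28.2% of all genes passed, and in ERβ1 against ERβ-KO, 7 rose and 6 fell, where 24.9% did. Without the GC trend the counts were 2 and 1 in ERβ5 and 2 and 4 in ERβ1, where 2171 and 3016 of all 13915 genes passed. RXRA, the partner of RARA and VDR, had 158 and 151 CPM in ERβ5, 176 and 171 CPM in ERβ1, 117 and 120 CPM in ERβ-KO and 153 and 153 CPM in control. ERβ-KO was the low group without overlap, and the log2 change was 0.39 ± 0.09 in ERβ5 against ERβ-KO (adjusted p = 0.0105), 0.55 ± 0.09 in ERβ1 against ERβ-KO (adjusted p = 0.00139) and -0.37 ± 0.09 in ERβ-KO against control (adjusted p = 0.0175). Of these, the ERβ1 change passed with the GC trend removed at 0.28 (adjusted p = 0.0368), and the others did not, at 0.06 (adjusted p = 0.683) and -0.10 (adjusted p = 0.472). RXRB passed in no comparison.

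NR4A1, an orphan receptor induced as an immediate early gene, had 38.9 and 70.1 CPM in ERβ5, 36.1 and 26.3 CPM in ERβ1, 19.3 and 15.9 CPM in ERβ-KO and 18.5 and 19.5 CPM in control. The ERβ5 libraries were the highest, and they were also far apart from each other. NR4A1 was higher in ERβ5 than in ERβ-KO by 1.62 ± 0.26 (adjusted p = 0.00323), and by 1.28 with the GC trend removed (adjusted p = 0.00889). RXRG, a further retinoid X receptor, had 0.488 and 0.735 CPM in ERβ5, 0.0751 and 0.145 CPM in ERβ1, 0.367 and 0.758 CPM in ERβ-KO and 0.122 and 0.109 CPM in control. ERβ5 and ERβ-KO overlapped and lay above ERβ1 and control. The log2 change was 2.31 ± 0.56 in ERβ5 against ERβ1 (adjusted p = 0.0385), -2.15 ± 0.56 in ERβ1 against ERβ-KO (adjusted p = 0.0176), 2.19 ± 0.56 in ERβ-KO against control (adjusted p = 0.0227) and 2.34 ± 0.56 in ERβ5 against control (adjusted p = 0.0177). Each of these calls was lost on leaving out at least 2 of its 4 libraries singly. Of 6 tested membrane progestin receptors and related genes, PAQR5, PAQR6 and PAQR7 rose and none fell in ERβ1 against ERβ-KO (24.9% of all genes passed). In ERβ5 against ERβ-KO only PAQR6 rose and none fell (28.2% of all genes). Without the GC trend PAQR5 passed in ERβ1 (adjusted p = 0.0221), whereas PAQR7 did not (adjusted p = 0.172) and PAQR6 passed in neither group. The ERβ1 calls of PAQR5 and PAQR7 were lost on leaving out any of the 4 libraries, and each call of PAQR6 on leaving out 3 of them singly.

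**Figure D3:**
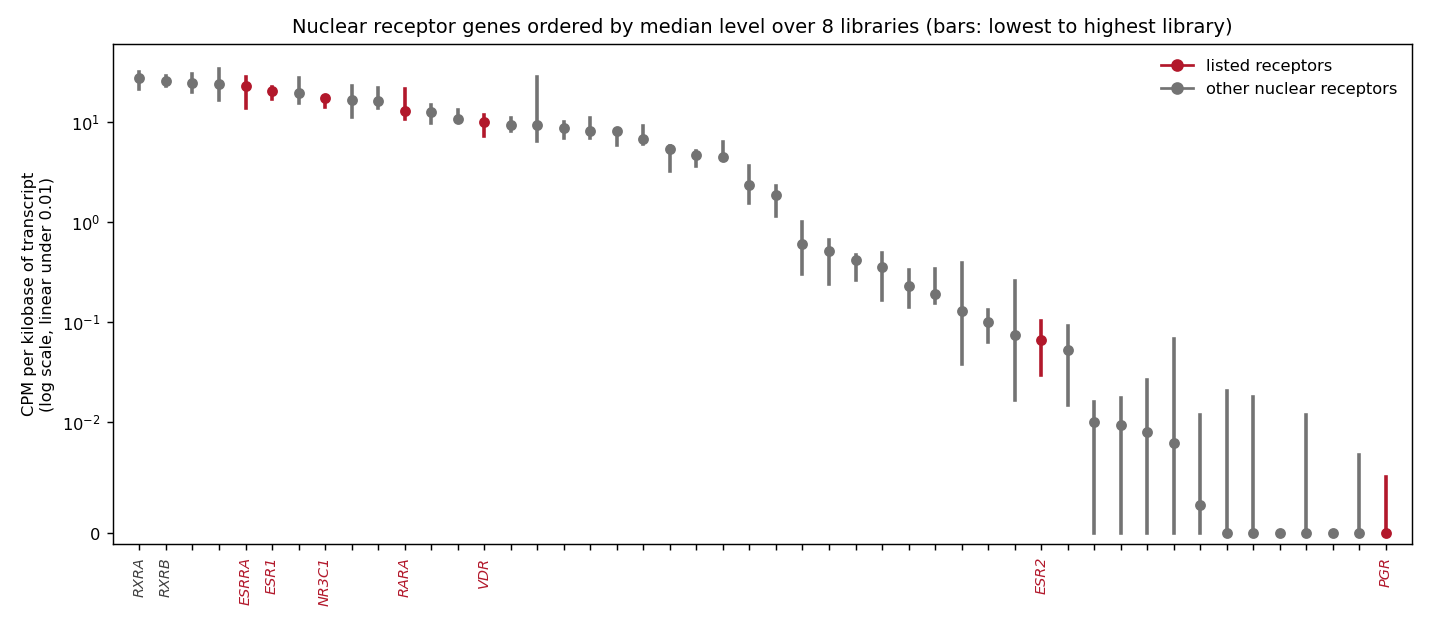
Median level per length of 48 nuclear receptor genes in order, in CPM per kilobase of the canonical transcript on a log axis that is linear under 0.01, with bars from the lowest to the highest of 8 libraries; the listed receptors are in red and named, as are RXRA and RXRB in grey. ESRRA and ESR1 rank 5th and 6th of 48 nuclear receptors, ESR2 ranks 35th.

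Coactivators and corepressors, the proteins through which nuclear receptors act on transcription, moved in both directions. Of 31 tested, 3 rose and 4 fell in ERβ5 against ERβ-KO (28.2% of all genes passed), 3 rose and 3 fell in ERβ1 against ERβ-KO (24.9% of all genes), and 5 rose and 1 fell in ERβ-KO against control (17.5% of all genes). These counts without the GC trend were 3 and 2 in ERβ5, 2 and 6 in ERβ1 and 5 and 0 in ERβ-KO. NCOA7, a coactivator of estrogen receptors, had 22 and 32.8 CPM in ERβ5, 11 and 11.8 CPM in ERβ1, 28.7 and 28.4 CPM in ERβ-KO and 15.7 and 13.3 CPM in control. ERβ1 was the lowest group and ERβ5 and ERβ-KO overlapped. NCOA7 was higher in ERβ5 than in ERβ1 by 1.26 ± 0.18 (adjusted p = 0.00194) and lower in ERβ1 than in ERβ-KO by a log2 change of -1.32 ± 0.18 (adjusted p = 0.00042). Both calls held with the GC trend removed and without each library in turn.

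NRIP1, a corepressor bound by ligand-occupied ERα, had 67.8 and 66.3 CPM in ERβ5, 54.5 and 58.3 CPM in ERβ1, 87.7 and 86.8 CPM in ERβ-KO and 56.5 and 51 CPM in control. It was highest in ERβ-KO, with a log2 change of -0.63 ± 0.10 in ERβ1 against ERβ-KO (adjusted p = 0.00126) and 0.70 ± 0.10 in ERβ-KO against control (adjusted p = 0.00183). After removal of the GC trend these were -0.37 (adjusted p = 0.0115) and 0.43 (adjusted p = 0.0118). The call in ERβ-KO against control was lost without the second control library. GATA3, a factor that opens chromatin for ERα, had 1560 and 1820 CPM in ERβ5, 1840 and 1720 CPM in ERβ1, 1120 and 1120 CPM in ERβ-KO and 1340 and 1390 CPM in control. GATA3 is also among the luminal markers. The isoform libraries were all above the others, by 0.60 ± 0.11 in ERβ5 (adjusted p = 0.00359) and 0.67 ± 0.11 in ERβ1 (adjusted p = 0.00122) against ERβ-KO. FOXA1, which opens chromatin for ERα too, ran from 335 to 435 CPM, and NCOA3, a p160 coactivator, from 1240 to 1600 CPM. Neither passed in any comparison.

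Chaperones of the steroid receptor complex numbered 16, all tested. Of these, 6 rose and 3 fell in ERβ5 against ERβ-KO (28.2% of all genes passed), 5 rose and 2 fell in ERβ1 against ERβ-KO (24.9% of all genes), and 2 rose and 2 fell in ERβ-KO against control (17.5% of all genes). The GC-corrected counts were 5 and 1 in ERβ5, 3 and 1 in ERβ1 and 0 and 1 in ERβ-KO. DNAJA1, a cochaperone of HSP70, had 376 and 470 CPM in ERβ5, 283 and 259 CPM in ERβ1, 354 and 293 CPM in ERβ-KO and 227 and 237 CPM in control. The ERβ5 libraries were the highest, and the log2 change against control was 0.87 ± 0.13 (adjusted p = 0.0012). STUB1, the ubiquitin ligase that marks unfolded receptor for degradation, rose by 0.50 ± 0.10 in ERβ1 against ERβ-KO (adjusted p = 0.00352), a call lost with the GC trend removed (0.18, adjusted p = 0.121).

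Known estrogen target genes moved in both directions, and TFF1 and GREB1 passed in no comparison. Of 26 tested, 7 rose and 4 fell in ERβ5 against ERβ-KO (28.2% of all genes passed), 5 rose and 4 fell in ERβ1 against ERβ-KO (24.9% of all genes), 2 rose and none fell in ERβ5 against ERβ1 (4.66% of all genes), and 3 rose and 1 fell in ERβ-KO against control (17.5% of all genes). Without the GC trend the counts were 5 and 4 in ERβ5 and 4 and 8 in ERβ1 against ERβ-KO, 4 and 0 in ERβ5 against ERβ1, and 4 and 0 in ERβ-KO against control. In the same order, 2171, 3016, 1007 and 1422 of all 13915 genes passed in that fit. The median change of the 26 was 0.10 in ERβ5 and -0.14 in ERβ1 against ERβ-KO, where the median of all genes was 0.01 and 0. TFF1, a secreted trefoil peptide and textbook ERα target, had 332 and 471 CPM in ERβ5, 254 and 259 CPM in ERβ1, 289 and 378 CPM in ERβ-KO and 355 and 297 CPM in control. ERβ5 lay above ERβ1, with a log2 difference of 0.65 ± 0.17 (adjusted p = 0.0587). GREB1, another such target, ran from 0.231 to 0.464 CPM.

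Among the targets that did pass, CCND1, the cell cycle cyclin D1, had 658 and 537 CPM in ERβ5, 790 and 752 CPM in ERβ1, 441 and 391 CPM in ERβ-KO and 493 and 526 CPM in control. It was highest in ERβ1, where it exceeded ERβ-KO by 0.89 ± 0.12 (adjusted p = 0.000384). AGR2, a disulfide isomerase of secretory cells, had 354 and 437 CPM in ERβ5, 278 and 264 CPM in ERβ1, 530 and 551 CPM in ERβ-KO and 502 and 518 CPM in control. It was lowest in ERβ1, with a log2 change of -1.0 ± 0.11 against ERβ-KO (adjusted p = 0.000124) and -0.91 ± 0.11 against control (adjusted p = 0.00092). MYBL1, a transcription factor of the MYB family, had 0.948 and 1.65 CPM in ERβ5, 0.638 and 0.992 CPM in ERβ1, 3.44 and 3.72 CPM in ERβ-KO and 1.05 and 1.23 CPM in control. ERβ-KO stood alone at the top, with log2 changes of -1.48 ± 0.28 in ERβ5 against ERβ-KO (adjusted p = 0.005), -2.08 ± 0.29 in ERβ1 against ERβ-KO (adjusted p = 0.000645) and 1.65 ± 0.28 in ERβ-KO against control (adjusted p = 0.00428). These calls of CCND1, AGR2 and MYBL1 held with the GC trend removed and without each library in turn.

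Of 17 glucocorticoid target genes tested, 5 rose and 1 fell in ERβ5 against ERβ-KO (28.2% of all genes passed), 1 rose and 4 fell in ERβ1 against ERβ-KO (24.9% of all genes), 4 rose and 1 fell in ERβ5 against ERβ1 (4.66% of all genes), and 4 rose and none fell in ERβ-KO against control (17.5% of all genes). These counts without the GC trend were 3 and 2 in ERβ5 and 2 and 5 in ERβ1 against ERβ-KO, 5 and 1 in ERβ5 against ERβ1, and 5 and 0 in ERβ-KO against control. LCN2, an iron-binding secreted protein also induced through NF-κB, had 59.6 and 117 CPM in ERβ5, 8.53 and 11.5 CPM in ERβ1, 55.2 and 72.1 CPM in ERβ-KO and 30 and 31.1 CPM in control. ERβ1 lay far below the others, with a log2 difference of 3.12 ± 0.31 in ERβ5 against ERβ1 (adjusted p = 0.000717) and -2.65 ± 0.30 in ERβ1 against ERβ-KO (adjusted p = 0.000446). MT2A, a metallothionein that binds zinc, had 228 and 392 CPM in ERβ5, 173 and 185 CPM in ERβ1, 114 and 142 CPM in ERβ-KO and 107 and 106 CPM in control. It was highest in ERβ5, by 1.27 ± 0.21 against ERβ-KO (adjusted p = 0.00399).

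TSC22D3, the glucocorticoid-induced leucine zipper, had 82.1 and 82.4 CPM in ERβ5, 116 and 115 CPM in ERβ1, 93.8 and 106 CPM in ERβ-KO and 118 and 110 CPM in control. It was lowest in ERβ5, with a log2 difference of -0.49 ± 0.10 against ERβ1 (adjusted p = 0.0156), a call lost without either ERβ1 library or without the second ERβ5 library. FKBP5, a cochaperone that glucocorticoids induce, ran from 78 to 105 CPM and passed in no comparison.

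Retinoic acid targets were few at these levels: 8 of 17 were tested. Of the 8, 3 rose and none fell in ERβ5 against ERβ-KO (28.2% of all genes passed), 1 rose and 1 fell in ERβ1 against ERβ-KO (24.9% of all genes), and 2 rose and none fell in ERβ5 against ERβ1 (4.66% of all genes). The GC-corrected counts were 1 and 0 in ERβ5 and 1 and 2 in ERβ1 against ERβ-KO, and 2 and 0 in ERβ5 against ERβ1. TGM2, the tissue transglutaminase, which retinoic acid and NF-κB both induce, had 4.11 and 6.69 CPM in ERβ5, 0.789 and 0.599 CPM in ERβ1, 4.34 and 3.39 CPM in ERβ-KO and 1.02 and 1.42 CPM in control. ERβ5 and ERβ-KO overlapped and lay above ERβ1 and control. The log2 change was 2.98 ± 0.31 in ERβ5 against ERβ1 (adjusted p = 0.000424), -2.52 ± 0.32 in ERβ1 against ERβ-KO (adjusted p = 3e-04), 1.68 ± 0.29 in ERβ-KO against control (adjusted p = 0.00458) and 2.14 ± 0.29 in ERβ5 against control (adjusted p = 0.000661). All 4 calls held with the GC trend removed and without each library in turn. CYP26A1, the retinoic acid hydroxylase and most direct target, had at most 0.147 CPM and was not tested.

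Vitamin D targets were likewise sparse, with 12 of 20 tested. Of these, 4 rose and 1 fell in ERβ5 against ERβ-KO (28.2% of all genes passed), 1 rose and none fell in ERβ1 against ERβ-KO (24.9% of all genes), and 2 rose and 3 fell in ERβ5 against control (13.2% of all genes). Without the GC trend the counts were 2 and 1 in ERβ5 and 1 and 1 in ERβ1 against ERβ-KO, and 2 and 3 in ERβ5 against control. OSGIN1, an oxidative stress response gene, had 68.1 and 117 CPM in ERβ5, 29.3 and 26.5 CPM in ERβ1, 35 and 41.2 CPM in ERβ-KO and 33.2 and 30.8 CPM in control. It was highest in ERβ5, by 1.53 ± 0.21 against control (adjusted p = 0.0012). FBP1, the gluconeogenic enzyme fructose bisphosphatase, had 303 and 294 CPM in ERβ5, 428 and 389 CPM in ERβ1, 213 and 210 CPM in ERβ-KO and 297 and 335 CPM in control. It was lowest in ERβ-KO, with log2 changes of 0.50 ± 0.10 in ERβ5 (adjusted p = 0.00597) and 0.95 ± 0.10 in ERβ1 (adjusted p = 8.35e-05) against it. CYP24A1, the vitamin D hydroxylase and main VDR target, had at most 0.147 CPM and was not tested.

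Genes bound by ERRα, most of them for mitochondrial energy metabolism, were all tested, 18 in number. In ERβ5 against ERβ-KO 2 rose and 3 fell (28.2% of all genes passed), in ERβ1 against ERβ-KO 3 rose and 2 fell (24.9% of all genes), and in ERβ-KO against control none rose and 1 fell (17.5% of all genes). These counts without the GC trend were 0 and 2 in ERβ5, 3 and 3 in ERβ1 and 0 and 0 in ERβ-KO. The gene that fell in ERβ-KO was C1orf170 (PERM1), a muscle regulator of ERRα activity, at 0.527 to 1.92 CPM over all libraries, with a log2 change of -1.41 ± 0.31 (adjusted p = 0.0136) that became -1.0 with the GC trend removed (adjusted p = 0.0662). None of the tricarboxylic acid cycle or respiratory chain genes among the 18 passed there. MAOB, a monoamine oxidase of mitochondria, had 0.977 and 0.588 CPM in ERβ5, 3.12 and 2.31 CPM in ERβ1, 0.872 and 0.593 CPM in ERβ-KO and 1.19 and 1.69 CPM in control. It was highest in ERβ1, by 1.84 ± 0.32 against ERβ-KO (adjusted p = 0.00219).

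Enzymes and carriers of steroids and retinoids were tested in 20 of 37 cases. Of the 20, 1 rose and 3 fell in ERβ5 against ERβ-KO (28.2% of all genes passed), 4 rose and 1 fell in ERβ1 against ERβ-KO (24.9% of all genes), and none rose and 3 fell in ERβ-KO against control (17.5% of all genes). The GC-corrected counts were 2 and 2 in ERβ5, 4 and 1 in ERβ1 and 0 and 1 in ERβ-KO. CRABP1, a retinoic acid carrier, had 5.8 and 6.17 CPM in ERβ5, 11.5 and 11 CPM in ERβ1, 5.53 and 7.02 CPM in ERβ-KO and 10.9 and 12.7 CPM in control. ERβ5 and ERβ-KO overlapped, and both lay below ERβ1 and control. CRABP1 was lower in ERβ5 than in ERβ1 by a log2 difference of -0.91 ± 0.16 (adjusted p = 0.0076), which was lost without either ERβ1 library, and lower in ERβ5 than in control by -0.98 ± 0.16 (adjusted p = 0.00233), which was not. STS, the steroid sulfatase that releases estrogens from their sulfates, had 13.1 and 13.9 CPM in ERβ5, 15.5 and 16 CPM in ERβ1, 10.1 and 11.1 CPM in ERβ-KO and 8.76 and 9.42 CPM in control. It was highest in ERβ1, by 0.80 ± 0.13 against control (adjusted p = 0.00543), a call lost without the first control library.

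**Figure D4:**
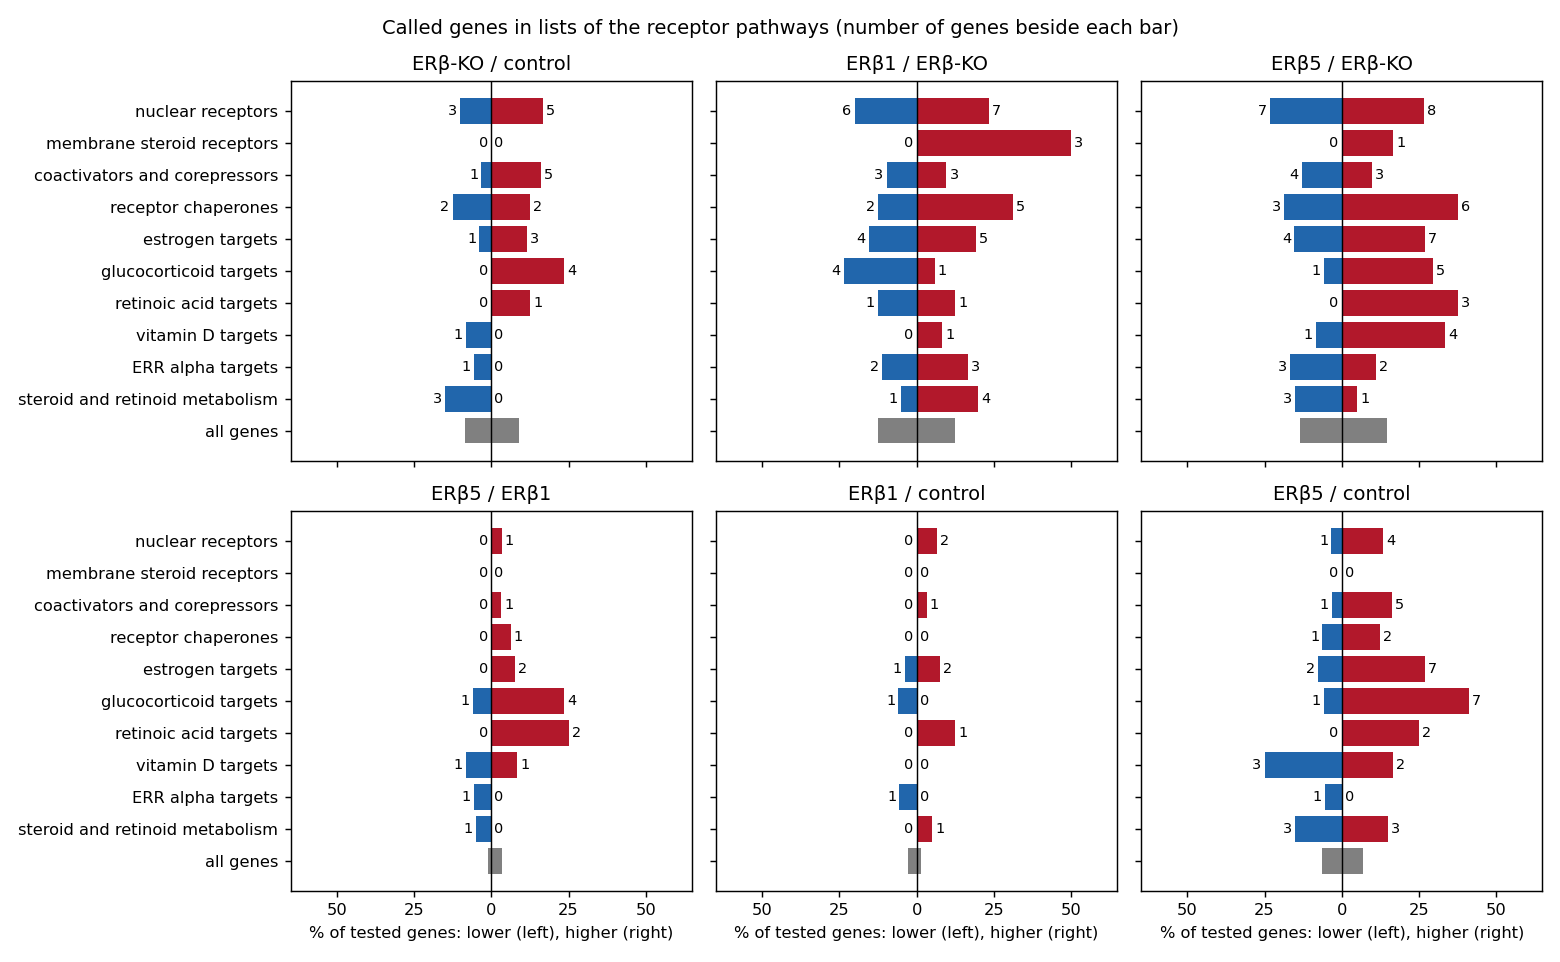
Share of the tested genes of each pathway list, in percent, that passed an adjusted p of 0.05 as higher (right) or lower (left) in each comparison, with the number of genes beside each bar and all genes for reference. Glucocorticoid targets show 5 higher and 1 lower in ERβ5 against ERβ-KO, and 1 higher and 4 lower in ERβ1 against ERβ-KO, which became 3 and 2 in ERβ5 and 2 and 5 in ERβ1 with the GC trend removed.

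How far these calls rest on the GC trend or on single libraries differed between comparisons. Counting each gene of the 12 lists once, marker lists included, 34 of 73 called genes in ERβ5 against ERβ-KO also passed with the GC trend removed, as did 48 of 67 in ERβ1 against ERβ-KO and 19 of 36 in ERβ-KO against control. In ERβ5 against ERβ1 all 18 did, and against control 49 of 50 did in ERβ5 and all 16 in ERβ1. Calls that held without each of the 4 libraries in turn numbered 17 in ERβ5 and 29 in ERβ1 against ERβ-KO, 3 in ERβ5 against ERβ1, 4 in ERβ-KO against control, 11 in ERβ5 against control and 2 in ERβ1 against control. The count for the nuclear receptor list, 15 in ERβ5 against ERβ-KO, ran from 4 to 15 when single libraries were left out, and that for estrogen targets, 11, ran from 4 to 11.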

How the data were processed

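The deposited values are counts: whole numbers of reads per gene, not normalized, in 1 file per library. The tools named in the submitters' processing notes are bcl2fastq, TopHat2 2.0.8b and HTSeq, and the build is hg19. The version, strand setting and annotation behind the counts are not stated there. The 5 closing entries of each file, which name no gene, were left out of library sizes and tests. They held reads with no single place (34.7 to 39.9% of the sum of all entries), in no gene (7.01 to 7.79%) or ambiguous between genes (0.54 to 0.561%). Counts in genes made up 52.5 to 57.1% of that sum. Whether a read with several places was counted once or once per place is not stated, so these may not be shares of reads.

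Samples were grouped by the labels. Genes were filtered with filterByExpr (minimum count 10, minimum total 15), which left 13915, and tested with edgeR 4.0.16 in R 4.3.3 (TMM scaling, robust quasi-likelihood F test, all 8 libraries in a single fit). The common biological coefficient of variation was 0.102. Adjustment was by Benjamini-Hochberg over the tested genes, and an adjusted p under 0.05 was called. A standard error is the log2 change over the square root of F. CPM are TMM-scaled. The fit was tested on simulated data in which all genes had the same coefficient of variation and no GC trend. That test therefore does not check the fit under the GC trend of these libraries. Alternatives were other size factors and filters, DESeq2 1.42.0, a minimum change of 1.5-fold, only the groups compared, a replicate block, lowess removal of each library's GC trend (span 0.3), and leaving out each library in turn, where the library left alone in its group is assumed to vary like the other groups.

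Transcript lengths, GC content and positions come from the canonical GENCODE transcripts on GRCh37, matched by symbol to 21321 of the 23228 genes (91.8%). Duplicates differed beyond sampling noise (chi-square over its degrees of freedom, 7.524 to 41.37), so none was taken for a library deposited again, which does not show that they are independent cultures. The receptors and gene lists were chosen with earlier results of these data known. Named are the 8 receptors, RXRA, RXRB, NCOA3, NRIP1, FOXA1, GATA3, TFF1, GREB1, FKBP5, TSC22D3, CYP24A1 and CYP26A1. Further genes were drawn from the called list members with the largest changes (at most 4 a list and comparison) and the 3 genes most like each receptor. Only a part of these is described, and some left out had larger changes than some described. SYNE1, SYNE2, C7orf50 and TRMT112 were named outside this rule. The result of 1 further gene is not reported here.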

Additional observations from a re-analysis of the deposited data

Results flagged for a closer look

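RARA differed between the isoforms by a test of that difference: it was higher in ERβ5 than in ERβ1 by 0.42 ± 0.11 on the log2 scale (SE, adjusted p = 0.0447 by edgeR's quasi-likelihood test), with both ERβ5 libraries above both ERβ1 libraries. It was 1 of 7 receptors tested there, in a comparison where 4.66% of all genes passed. Leaving out single libraries gave 0.34 to 0.50, with adjusted p from 0.019 to 0.281.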

How the results depend on the processing

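With 2 libraries per group, single libraries decide many calls. Counts of called receptors and of all called genes are given in the order ERβ5 and ERβ1 against ERβ-KO, ERβ5 against ERβ1, ERβ-KO against control, then ERβ5 and ERβ1 against control. The main counts were 2, 3, 1, 2, 2 and 1 receptors and 3922, 3466, 649, 2434, 1831 and 565 genes. Without single libraries they ran over 2 to 3, 1 to 3, 0 to 1, 0 to 1, 1 to 2 and 0 to 0 receptors, and over 1674 to 4378, 1198 to 3773, 125 to 1389, 237 to 1480, 587 to 2143 and 128 to 235 genes. Against a minimum change of 1.5-fold they were 1, 1, 0, 0, 0 and 0 receptors and 160, 455, 189, 123, 341 and 86 genes. With the GC trend removed they were 2, 1, 1, 1, 3 and 2 receptors and 2171, 3016, 1007, 1422, 2648 and 1106 genes. Without a filter, 4 receptors were called in ERβ5 and 3 in ERβ1 against control, with 1384 genes in ERβ1 against control and 1375 in ERβ5 against ERβ1. DESeq2 called 2 receptors and 853 genes in ERβ1 against control. With only the groups compared, no receptor (0) and 421 genes were called in ERβ5 against ERβ1, 3 receptors and 1107 genes in ERβ1 against control and 4351 genes in ERβ-KO against control. Other size factors and the 1 CPM filter kept all these counts within 1.5 times. The causes were not tested.

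With the GC trend removed, 4 receptor values changed sign, none called before or after: RARA to 0.23 in ERβ-KO against control, NR3C1 to 0.22 in ERβ5 and 0.10 in ERβ1 against ERβ-KO, and ESRRA to -0.02 in ERβ5 against ERβ-KO. Leaving out single libraries turned 15 more values, none called in the fit of all libraries. Their ranges were -0.22 to 0.07 for ESR1 in ERβ5 against control and against ERβ1, and -0.13 to 0.26 (ERβ-KO against control) and -0.64 to 0.29 (ERβ5 against ERβ1) for ESR2. For NR3C1 they were -0.14 to 0.02 and -0.29 to 0.05 in ERβ5 and ERβ1 against ERβ-KO, -0.11 to 0.24 in ERβ5 against ERβ1, -0.12 to 0.04 in ERβ-KO against control and -0.33 to 0.01 in ERβ1 against control. In ERβ5 against ERβ1 they were -0.02 to 0.19 for VDR and -0.12 to 0.01 for ESRRA.

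Deviations from the group means correlated at -0.181 to 0.2 between libraries of the same replicate number, above 0.1 in 3 of 6 pairs of groups, so the numbers were not taken to pair the libraries. The fit with the replicate block called 0 receptors in ERβ5 against ERβ1 and 3 in ERβ5 against ERβ-KO.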
